A study of Sus scrofa with 16 samples.

Results

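Solute carriers are a large class of membrane transport proteins, and the members described here are 112 solute carrier genes measured in the pituitary glands of 16 pigs. They were chosen by name: 156 symbols in the deposited gene comparison had the form SLC, a family number, A and a member number, 1 further gene being left out by the rule, and 112 of the 156 had at least 100 counts in at least 8 pigs. Of these members, 27 belonged to the SLC25 family (33 before the count minimum) and 85 to other families (123 before the minimum). The whole count table held 25880 genes, of which 13621 had enough counts to be tested.

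All 16 pigs were Zlotnicka white females labelled day 180, raised at 1 test station and slaughtered at about 100 kg. They fell into 8 pigs of low feed conversion ratio (LFC), which used less feed for each unit of weight gained, and 8 of high feed conversion ratio (HFC). Feed conversion is a trait by which the animals were chosen and not a treatment, the pigs came from different farms, and whole glands were homogenized. The study reports that HFC pigs of this breed spent more days on test and gained less per day. It also reports more fat at several points and less meat in their carcasses. Feed conversion cannot be told apart from these traits here. The comparison addressed how pituitary RNA levels differ with feed conversion, and it was made as HFC over LFC.

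Solute carriers move ions, nutrients, hormones, vitamins and metals across the plasma membrane or the membranes of organelles, most of them as secondary transporters or exchangers driven by the gradients of sodium, protons or the carried substances themselves. Carriers of the SLC25 family sit mainly in the inner mitochondrial membrane, where they exchange ADP for ATP and admit phosphate, amino acids, nucleotides and cofactors. In the pituitary, endocrine cells depend on such proteins for amino acids used in hormone synthesis, for the loading of secretory granules and for cell volume and calcium handling.

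Library totals ran from 6010629 to 11794256 counts, with a median of 7803047 in the LFC and 9027332 in the HFC pigs, and the members held between 0.636% and 0.762% of the counts. Levels are given as CPM, counts divided by the TMM-scaled size of the library. The endocrine markers PRL, GH1, CGA, CHGA and CHGB together reached 89751 to 153362 CPM in the LFC and 101920 to 217765 CPM in the HFC pigs, so the labelled tissue was present in every gland. Their sum gave an exact permutation p of 0.0608 (two-sided, 0.191 adjusted over 7 marker lists). Of the 5, 1 was higher and 1 lower at an unadjusted p of at most 0.05 (edgeR), beside 7.03% and 4.41% of all genes tested. PRL ran from 15501 to 56707 CPM in the LFC and from 39895 to 112503 CPM in the HFC pigs. CGA ran from 18526 to 53610 CPM and from 12038 to 36287 CPM. Pigs differed in cell type markers, and single pigs stood apart in their trend on gene length. No marker sum differed between the groups at an adjusted p of at most 0.05 (exact permutation, adjusted over 7 marker lists). The glial markers GFAP and AQP4 summed to between 25.2 and 1649 CPM in the LFC and 19.4 and 1591 CPM in the HFC pigs and were highest in LFC replicate 5 and HFC replicate 6, as were 4 oligodendrocyte markers, of which MOG was at 0 in 1 pig and MAG in 3. The erythrocyte markers HBB, ALAS2 and AHSP summed to 278 to 1429 CPM in the LFC and 63.2 to 1047 CPM in the HFC pigs, with group medians of 449 and 184 CPM (exact permutation p 0.0227, two-sided, 0.159 adjusted over 7 marker lists). Their highest sums were in LFC replicate 4 and HFC replicate 5, and AHSP was at 0 in 3 pigs. The endothelial markers PECAM1, VWF, CDH5 and KDR summed to 94.9 to 144 CPM in the LFC and 79.6 to 225 CPM in the HFC pigs. Their exact permutation p was 0.199 (0.279 adjusted over 7 marker lists). Of the 4, 2 were higher at an unadjusted p of at most 0.05 (edgeR), beside 7.03% of all genes tested. The part of these markers in the differences between groups below was not tested. The slope of log2 CPM on log2 gene length was lowest in LFC replicate 6 (-0.0859), LFC replicate 4 (-0.084) and HFC replicate 5 (-0.0665). In whole glands, fewer cells of a type and less RNA per cell cannot be told apart.

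No member passed the test of HFC against LFC. With the limits set at 0.05 for the Benjamini-Hochberg adjusted p and 1.3 for the fold, edgeR's quasi-likelihood test called 0 of the 112 members and 0.0% of all genes, while DESeq2 called 0 members and 0.216% of all genes. Before adjustment, 9 of the 85 members outside SLC25 were higher in the HFC pigs with p at or below 0.05 and 0 were lower, against 7.03% of all genes tested higher and 4.41% lower. Scaling by total library size alone gave 7 of these members higher and 0 lower, beside 4.69% of all genes higher and 5.51% lower. Among the 27 SLC25 members 0 were higher and 2 lower at the same unadjusted threshold. The CPM of the LFC and HFC pigs overlapped in all 112 members, and 0.00734% of all genes had groups that did not overlap. The statements below therefore describe levels and their spread, and no difference in a member passed the limit for the adjusted p over all genes tested.

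Among transporters outside mitochondria, SLC8A1 (ENSSSCG00000036418, Sscrofa11.1 chromosome 3, 99823548 to 100244770) encodes the sodium-calcium exchanger NCX1, which expels calcium from excitable cells. Its lowest, median and highest levels were 48.2, 58.0 and 75.0 CPM in the LFC pigs and 62.2, 73.3 and 81.8 CPM in the HFC pigs. All 8 HFC pigs lay above the LFC median, and LFC replicate 2, the highest LFC pig, exceeded 5 of them. The log2 fold change was 0.33 ± 0.09 (SE), and edgeR's quasi-likelihood test gave an unadjusted p of 0.00179 and a Benjamini-Hochberg adjusted p of 0.385.

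**Figure D1:**
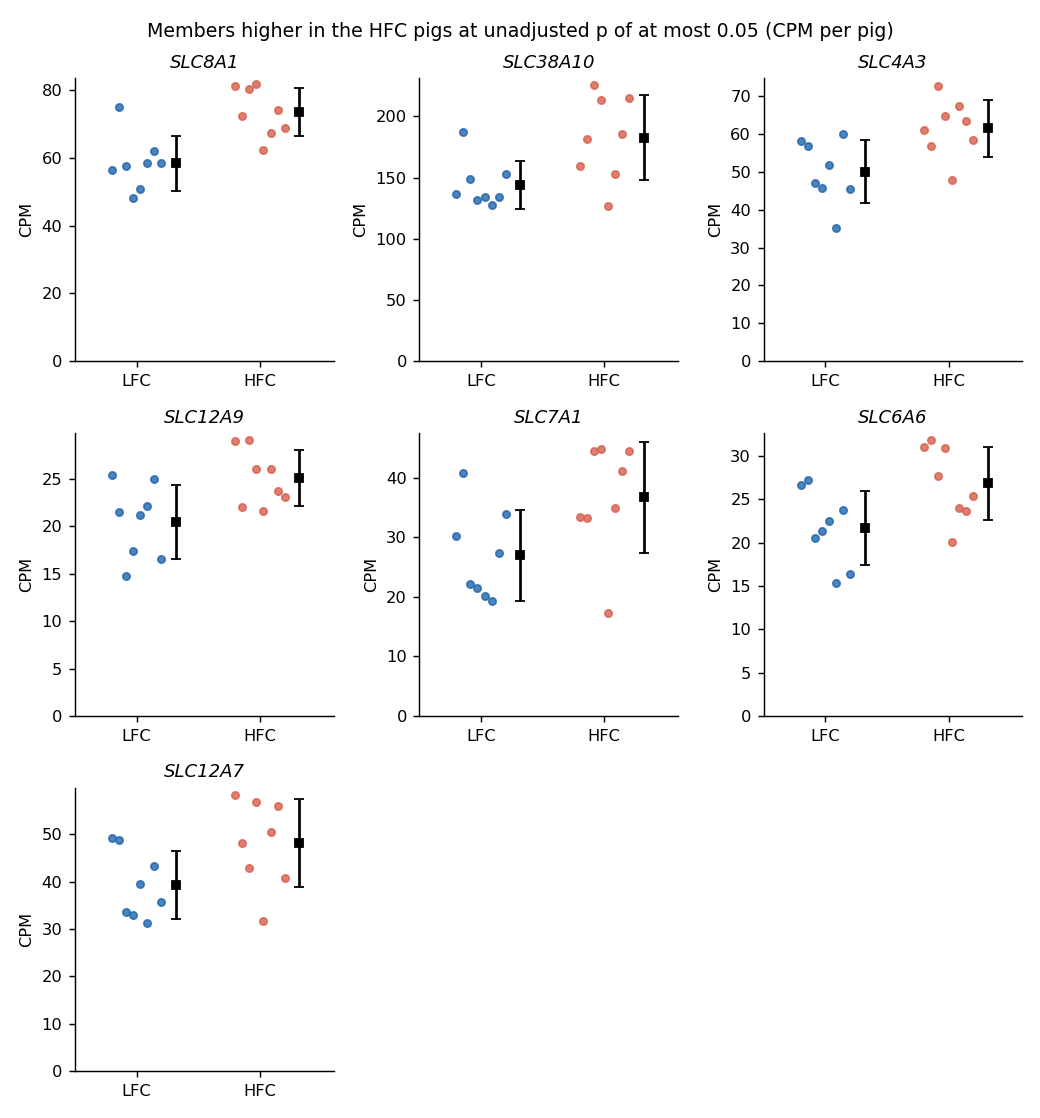
The 7 members described here that were higher in the HFC pigs at an unadjusted p of at most 0.05, each point being the CPM of 1 pig (8 LFC in blue, 8 HFC in red) and the square with bars the mean ± SD. The groups overlap in every panel, and SLC8A1 runs from 48.2 to 75.0 CPM in the LFC and from 62.2 to 81.8 CPM in the HFC pigs.

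Chloride and bicarbonate carriers were the most frequent among the 9. SLC12A7 encodes the potassium-chloride cotransporter KCC4, which lowers chloride and cell volume. It was at 39.3 ± 7.13 CPM in the LFC and 48.2 ± 9.25 CPM in the HFC pigs (SD, n = 8), 0.29 as a log2 fold change (unadjusted p 0.0376, edgeR). SLC12A9, a relative whose transported substance is not settled, was at 20.5 ± 3.91 and 25.1 ± 2.95 CPM, and all 8 HFC pigs lay above the LFC median. SLC4A3, the chloride-bicarbonate exchanger AE3, was at 50.1 ± 8.26 and 61.6 ± 7.50 CPM, with 5 HFC pigs above the highest LFC pig and 1 below the LFC median.

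The list of cation-chloride, bicarbonate and proton exchangers held 14 members, 10 higher and 4 lower in the HFC pigs. Past the unadjusted threshold 4 were higher (28.6%, beside 7.03% of all genes) and 0 lower (beside 4.41%). The median log2 fold change was 0.16, against -0.01 over all genes tested. SLC12A2, which imports chloride as NKCC1, was at 17.7 ± 2.77 and 20.2 ± 4.94 CPM, and SLC26A11, a sulfate and chloride carrier, at 122 ± 30.2 and 129 ± 39.0 CPM. The sodium-bicarbonate cotransporter gene SLC4A7 was at 14.4 ± 2.71 and 13.1 ± 1.39 CPM, a log2 difference of -0.13. With 1 surrogate variable the list was 7 higher and 7 lower, with 0 past the unadjusted threshold and a median of 0.03.

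The regulators and gradients on which these carriers depend were read from a separate list of 13 genes that are no members. Of these, 9 were higher and 4 lower, with 1 higher (7.69%, beside 7.03% of all genes) and 0 lower at an unadjusted p of at most 0.05. That gene was WNK1, a kinase that sets the activity of SLC12 cotransporters, with 95.8 ± 31.8 CPM in the LFC and 138 ± 33.6 CPM in the HFC pigs and a Benjamini-Hochberg adjusted p of 0.413 by edgeR's quasi-likelihood test.

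Amino acid transporters made up 11 members, of which 9 were higher and 2 lower in the HFC pigs. Past the unadjusted threshold 2 were higher (18.2%, beside 7.03% of all genes) and 0 lower (beside 4.41%). Their median log2 fold change was 0.12. SLC38A10, an amino acid carrier of the SLC38 family, was lowest at 128, median 135 and highest at 187 CPM in the LFC pigs, and lowest at 127, median 184 and highest at 226 CPM in the HFC pigs. LFC replicate 2 stood apart at the top of its group and HFC replicate 5 was the lowest of all 16 pigs. SLC7A1, which carries arginine and lysine into the cell as CAT1, had 19.4, 24.8 and 40.8 CPM as its lowest, median and highest LFC values and 17.3, 38.0 and 44.7 CPM as its HFC values. Here again LFC replicate 2 was the highest LFC pig and HFC replicate 5 lay below every LFC pig. The log2 fold changes were 0.34 for SLC38A10 and 0.45 for SLC7A1, with unadjusted p values of 0.00967 and 0.0255 (edgeR). With 1 surrogate variable the list was 7 higher and 4 lower, with 0 past the threshold and a median of 0.07.

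SLC7A5 and SLC3A2 encode the light and heavy chains of LAT1, a large neutral amino acid carrier whose substrates signal nutrient supply to the cell. SLC7A5 was at 62.7 ± 11.8 and 76.0 ± 22.5 CPM and SLC3A2 at 102 ± 22.5 and 113 ± 20.0 CPM (SD, n = 8), and neither reached an unadjusted p of 0.05. The ratio of the chains differed by 0.10 on the log2 scale (exact permutation p 0.594, two-sided, Benjamini-Hochberg adjusted over 5 gene pairs 0.743). SLC1A5, a glutamine exchanger, was at 26.6 and 32.5 CPM on average, with a p of 0.0515 (edgeR).

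Transporters of neurotransmitters, creatine and vesicles comprised 5 members, 3 higher and 2 lower. At an unadjusted p of at most 0.05, 1 member was higher (20.0%, beside 7.03% of all genes). That member was the taurine transporter gene SLC6A6, at 21.7 ± 4.28 CPM in the LFC and 26.9 ± 4.24 CPM in the HFC pigs, 0.30 as a log2 fold change. SLC6A17, which loads neutral amino acids into synaptic vesicles, was at 195 ± 35.5 and 233 ± 49.6 CPM with 7 of 8 HFC pigs above the LFC median. SLC17A5, the lysosomal sialic acid exporter, was at 19.8 ± 2.44 and 17.7 ± 2.10 CPM.

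In all 9 members that were higher at an unadjusted p of at most 0.05, HFC replicate 5 was the lowest HFC pig. It lay below the LFC median in 6 of them. The 9 were picked by p from these same values, and how often this pig was lowest among all genes was not counted. Removing the trend on gene length left 9 of the 9 past the unadjusted threshold, and leaving out the 3 pigs of lowest length slope also left 9. With total library size in place of TMM 6 remained, and with 1 surrogate variable 2 remained, SLC8A1 among them. Under 1 surrogate variable 4 of the 85 members outside SLC25 were higher (4.71%), beside 2.58% of all genes. Whichever single pig was left out, 6 of the 9 remained, SLC4A3, SLC8A1, SLC12A9 and SLC38A10 among them. How many of all genes past the threshold in the main fit remained in each case was not counted. Without HFC replicate 5 the count of members outside SLC25 that were higher went from 9 to 17 of 85. The share of all genes that were higher went from 7.03% to 13.8%.

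Of 12 zinc transporters 3 were higher and 9 lower in the HFC pigs, with 0 in either direction past the unadjusted threshold and a median log2 fold change of -0.13. The importer genes SLC39A1, SLC39A3 and SLC39A10 were at 63.4 ± 16.5, 21.1 ± 4.12 and 37.4 ± 4.38 CPM in the LFC pigs and at 53.9 ± 8.62, 18.0 ± 1.69 and 32.7 ± 4.68 CPM in the HFC pigs, with unadjusted p values of 0.11, 0.0556 and 0.0583 (edgeR). SLC30A9, of the zinc exporter family, was at 122 ± 15.6 and 108 ± 22.1 CPM. SLC39A7, which releases zinc from the endoplasmic reticulum, was at 168 ± 17.7 and 177 ± 27.2 CPM, and SLC39A9 at 107 ± 11.5 and 112 ± 14.8 CPM. With 1 surrogate variable the list turned to 7 higher and 5 lower with a median of 0.03, and the log2 difference of SLC39A1 turned from -0.24 to 0.05.

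Carriers of iron, copper, manganese, magnesium and haem numbered 8, of which 3 were higher and 5 lower with 0 at the unadjusted threshold. SLC40A1, the iron exporter ferroportin of macrophages, ranged from 52.7 to 94.0 CPM in the LFC pigs and from 35.6 to 111 CPM in the HFC pigs, so the HFC range enclosed the LFC range. The magnesium carrier gene SLC41A1 was at 30.2 ± 3.57 and 34.5 ± 6.93 CPM. SLC22A17, a receptor for the iron-binding protein lipocalin 2 in the organic ion transporter family, was at 375 ± 58.2 and 433 ± 89.7 CPM with a p of 0.128 (edgeR). The list of monocarboxylate and organic ion transporters to which it belongs held 5 members, 2 higher and 3 lower.

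Carriers of sugars, nucleotide sugars, phosphate, fatty acids and vitamins held no member at an unadjusted p of at most 0.05. In the SLC2, SLC5 and SLC50 families 4 members were lower: SLC2A13, SLC50A1, SLC5A4 and the multivitamin transporter gene SLC5A6. The fifth gene of that list, deposited as SLC5A10, is named PRPSAP2 in the gene name table, which is no transporter, and is not described as one. With 1 surrogate variable the list was 3 higher and 2 lower. SLC2A13, the proton-linked inositol carrier, was at 25.9 ± 8.73 and 23.4 ± 3.71 CPM, a difference of -0.15 that turned to 0.04 without LFC replicate 8. SLC50A1, a sugar carrier of the Golgi, was at 40.4 ± 6.98 and 38.5 ± 8.05 CPM. The list of nucleoside and nucleotide-sugar carriers, which also held the SLC37 sugar-phosphate exchangers, had 4 of 9 members higher. SLC35A1, which brings CMP-sialic acid into the Golgi for glycoprotein hormones and other cargo, was at 85.4 ± 13.2 and 85.4 ± 19.8 CPM. SLC35A5 was at 30.4 ± 3.35 and 27.3 ± 3.36 CPM, and SLC37A1 at 47.2 ± 4.75 and 42.7 ± 3.48 CPM.

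Phosphate, fatty acid and acetyl-CoA carriers were 3 higher and 2 lower. SLC20A1, the phosphate importer PiT1, was at 91.2 ± 14.0 and 82.2 ± 9.72 CPM, the fatty acid transporter gene SLC27A6 at 14.7 ± 3.73 and 12.6 ± 2.68 CPM, and SLC33A1, which supplies acetyl-CoA to the endoplasmic reticulum, at 87.2 ± 15.2 and 89.8 ± 18.7 CPM. The vitamin, folate, choline and peptide list was also 3 higher and 2 lower. The choline transporter gene SLC44A2 had 93.3 ± 9.05 and 95.1 ± 23.0 CPM and SLC44A4 had 51.4 ± 16.2 and 63.8 ± 18.0 CPM. The 5 remaining members carry a solute carrier symbol without encoding a transporter and were 2 higher and 3 lower; SLC2A4RG, a transcription factor gene, was at 25.1 ± 5.81 and 22.2 ± 2.89 CPM and SLC7A6OS at 49.6 ± 7.05 and 46.4 ± 9.02 CPM.

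**Figure D2:**
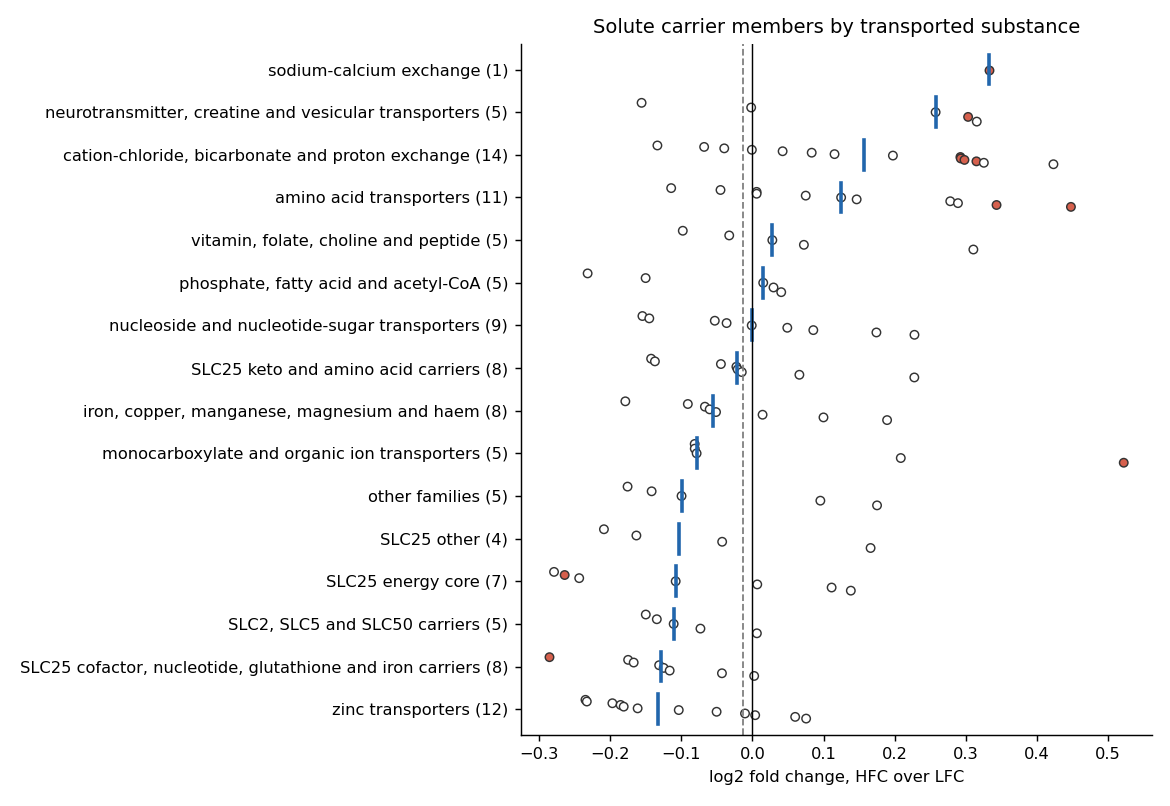
Log2 fold changes (HFC over LFC) of the 112 members grouped by transported substance, with the number of members in parentheses, filled points at an unadjusted p of at most 0.05, a blue bar at each median and a dashed line at the median of all genes tested (-0.01). The exchangers of chloride, bicarbonate and protons have a median of 0.16, the zinc transporters of -0.13.

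The SLC25 family showed lower levels in the HFC pigs in 20 of 27 members, beside 52.1% of all genes tested, with a median log2 fold change of -0.11. The 85 other members were higher in 44 and lower in 41 (47.9% of all genes were higher), with a median of 0.01. SLC25A4 (ENSSSCG00000015790, chromosome 15, 46193493 to 46200987), an ADP/ATP carrier that exports ATP from mitochondria, ranged over 151, 189 and 229 CPM as its lowest, median and highest LFC values and over 124, 147 and 212 CPM in the HFC pigs. In the HFC group 5 pigs lay below the lowest LFC pig, and HFC replicate 5 stood above the LFC median. The means were 187 ± 26.7 and 155 ± 29.4 CPM, which is -0.26 ± 0.12 (SE) as a log2 fold change, and edgeR's quasi-likelihood test gave an unadjusted p of 0.0385 and a Benjamini-Hochberg adjusted p of 0.43.

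SLC25A17 (ENSSSCG00000000072, chromosome 5, 7622247 to 7671931), the member with the other p below the unadjusted threshold, is not a mitochondrial carrier: its product sits in the peroxisome, where it exchanges coenzyme A, FAD and NAD. It was at 80.5 ± 16.8 CPM in the LFC and 66.0 ± 11.9 CPM in the HFC pigs, and 7 of 8 HFC pigs lay below the LFC median. The log2 fold change was -0.29 with an unadjusted p of 0.0462, and the p was 0.125 without LFC replicate 3 (edgeR). For SLC25A4 the p was 0.0909 without LFC replicate 6.

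**Figure D3:**
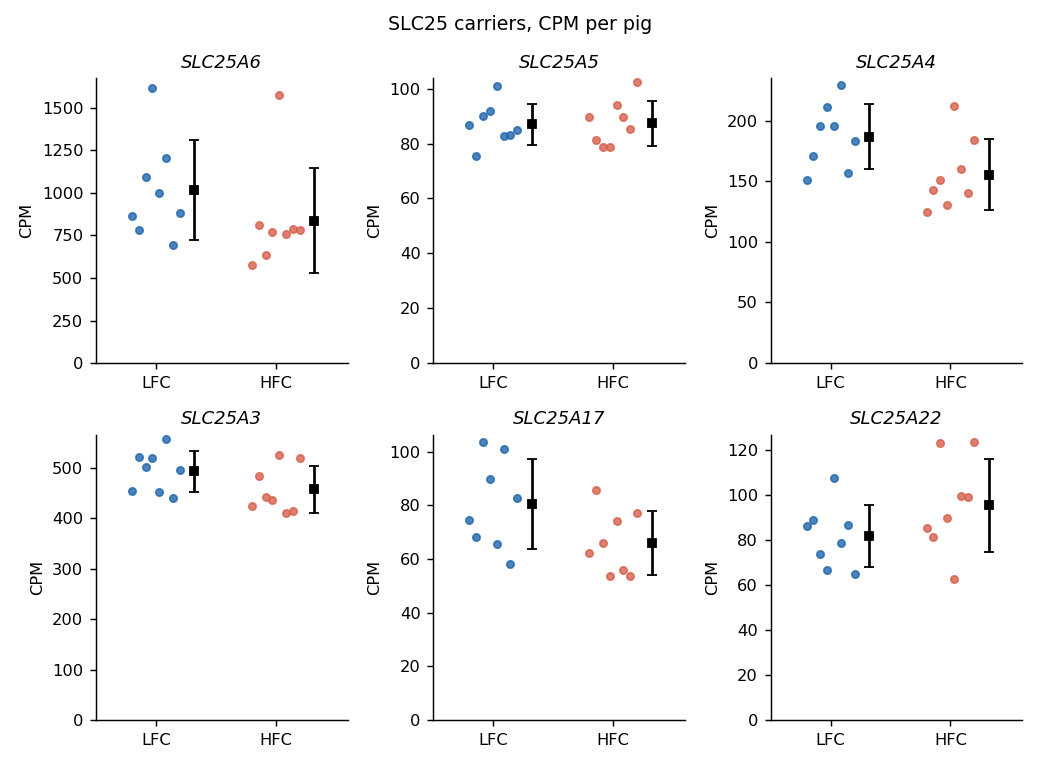
CPM of 6 SLC25 carriers in each pig (8 LFC in blue, 8 HFC in red), with the mean ± SD as a square with bars. HFC replicate 5 is the high HFC point of SLC25A6, at 1575 CPM, and of SLC25A4, at 212 CPM.

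The energy core of the family held the 3 ADP/ATP carriers, the phosphate carrier and the ATP-magnesium/phosphate carriers, with 3 of 7 members higher and 4 lower. SLC25A6, on an unplaced scaffold, had 692, 939 and 1619 CPM as its lowest, median and highest LFC values and 576, 778 and 1575 CPM in the HFC pigs. The highest pigs were LFC replicate 4 and HFC replicate 5, the same pigs that had the highest erythrocyte marker sums, and their part in the difference was not tested. SLC25A5 was at 87.0 ± 7.47 and 87.4 ± 8.26 CPM, a log2 difference of 0.01 with an interval of -0.16 to 0.17. The ADP/ATP carrier genes are close in sequence and the counts divide reads between them by an estimate, so the split among SLC25A4, SLC25A5 and SLC25A6 is uncertain.

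The ratio of SLC25A5 to SLC25A6 differed by 0.30 on the log2 scale (exact permutation p 0.136, two-sided, adjusted over 5 pairs 0.631). Without HFC replicate 5 the difference was 0.42 and the adjusted exact permutation p was 0.0482. SLC25A3, which admits phosphate and copper to the mitochondrial matrix, was at 493 ± 40.9 and 458 ± 46.4 CPM, with 6 of 8 HFC pigs below the LFC median. Among the calcium-regulated ATP-magnesium/phosphate carriers, SLC25A24 was at 20.1 ± 2.80 and 17.0 ± 3.77 CPM, SLC25A25 at 45.6 ± 8.93 and 49.2 ± 6.53 CPM and SLC25A23 at 29.4 ± 5.10 and 32.3 ± 7.76 CPM. None of these differed at an unadjusted p of at most 0.05.

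Carriers of cofactors, nucleotides, glutathione and iron were lower in 7 of 8 members. SLC25A39, which imports glutathione, was at 73.2 ± 9.21 and 64.8 ± 6.08 CPM with a p of 0.0596 (edgeR) and 1 of 8 HFC pigs above the LFC median. SLC25A28, the iron importer mitoferrin 2, was at 36.9 ± 3.78 and 33.8 ± 2.17 CPM, and SLC25A36, a pyrimidine nucleotide carrier, at 77.9 ± 12.1 and 71.8 ± 9.93 CPM. The keto and amino acid carriers had 2 of 8 members higher. SLC25A22, a mitochondrial glutamate carrier, was among the higher ones, at 81.8 ± 13.8 and 95.7 ± 20.7 CPM with a p of 0.106 (edgeR). SLC25A38, which brings in glycine for haem synthesis, was at 39.7 ± 3.99 and 36.1 ± 5.02 CPM.

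The aspartate-glutamate carriers of the malate-aspartate shuttle, SLC25A12 and SLC25A13, were at 52.4 ± 5.90 and 54.8 ± 5.60 CPM and at 22.1 ± 2.05 and 21.8 ± 2.89 CPM, and their ratio differed by 0.10 on the log2 scale (exact permutation p 0.41, adjusted over 5 pairs 0.683). The remaining 4 SLC25 members were 1 higher and 3 lower. SLC25A43, with no settled substrate, was at 17.7 ± 2.49 and 19.8 ± 2.85 CPM, and SLC25A27, the brain uncoupling protein UCP4, at 55.5 ± 11.4 and 53.8 ± 13.6 CPM.

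**Figure D4:**
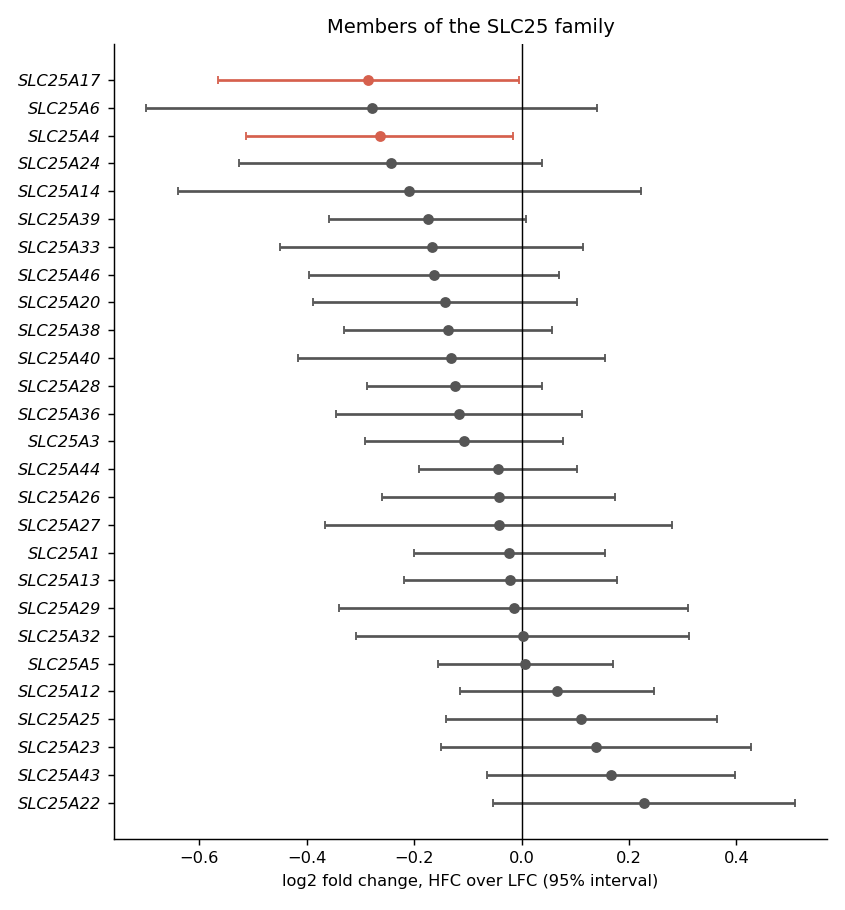
Log2 fold change (HFC over LFC, points) with its 95% interval (bars) for the 27 SLC25 members, red at an unadjusted p of at most 0.05. The points of 20 members lie below 0, and the intervals of SLC25A4 and SLC25A17 alone leave out 0.

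Genes of mitochondrial transport without an SLC25 symbol were read from a list of 9 that are no members. Of these, 1 was higher and 8 were lower, with 0 at the unadjusted threshold. The outer membrane channel genes VDAC1 and VDAC3 were at 227 ± 17.2 and 132 ± 24.9 CPM in the LFC pigs and at 209 ± 15.3 and 110 ± 23.2 CPM in the HFC pigs.

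The libraries also differed in the length slope, whose mean was -0.0174 ± 0.0462 in the LFC and 0.0174 ± 0.0389 in the HFC pigs (SD, n = 8, exact permutation p 0.126, two-sided). The slopes were taken from deviations around the mean of all pigs, so the group means mirror each other by construction. The median SLC25 gene spanned 29.5 kb, the median other member 33.4 kb and the median tested gene 29.6 kb. Among all tested genes with a known span, 36.4% of the shorter and 56.7% of the longer were higher in the HFC pigs. Among SLC25 members 4 of 14 shorter and 3 of 13 longer genes were higher, and among the other members 22 of 43 shorter and 22 of 42 longer. With the length trend removed the SLC25 median was -0.08, without the 3 pigs of lowest slope it was -0.04, and with 1 surrogate variable it was -0.01. The part of the length slope in the SLC25 difference was not tested beyond these values.

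**Figure D5:**
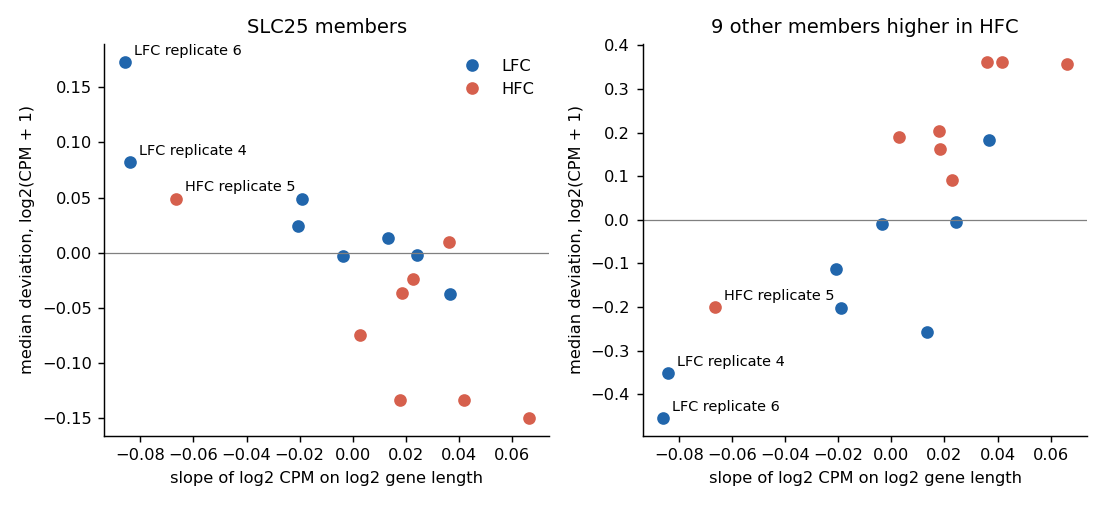
For each pig (LFC blue, HFC red) the x axis gives the slope of log2 CPM, less its mean over the 16 pigs, on log2 gene span. The y axis gives the median deviation of log2(CPM + 1) from the mean of the 16 pigs. The 27 SLC25 members are on the left and the 9 other members higher in HFC on the right. LFC replicate 6 has the lowest slope (-0.0859) and the highest SLC25 value (0.173), and HFC replicate 5 has a slope of -0.0665.

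Of the 112 members, 10 (8.93%) were highest of their group in both LFC replicate 5 and HFC replicate 6, beside 5.80% of all genes tested. These pigs had the most glial markers. They also had the highest sums of the macrophage markers CD68, CSF1R, C1QA and C1QB, at 239 and 286 CPM, against group medians of 182 and 140 CPM. The part of either cell type in the levels of these members was not tested. SLC4A4, the sodium-bicarbonate cotransporter NBCe1 of astrocytes, reached 24.7 CPM in LFC replicate 5 and 53.1 CPM in HFC replicate 6. The next pigs of those groups were at 19.5 and 36.6 CPM, and its lowest value was 1.31 CPM. SLC12A5, the neuronal potassium-chloride cotransporter KCC2, reached 52.6 and 58.2 CPM in these pigs, against medians of 33.9 and 33.5 CPM in the other pigs of each group. The creatine transporter gene SLC6A8 reached 93.6 and 73.6 CPM, with the next pigs of each group at 82.6 and 71.4 CPM. The choline transporter gene SLC44A1 reached 81.5 and 72.9 CPM, with the next pigs at 58.5 and 62.6 CPM. The other 6 were SLC1A4, SLC25A23, SLC25A29, SLC37A2, SLC38A5 and SLC41A3. Gaps between HFC replicate 6 and the next HFC pig varied, being 21.7 against 14.3 CPM for SLC1A4. For SLC37A2 the values were 33.9 and 32.7 CPM, and for SLC38A5 14.0 and 13.7 CPM.

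For SLC4A4 the group difference was small beside its spread among pigs. The log2 fold change of SLC4A4 was 0.33 ± 0.47 (SE) and turned to -0.06 without HFC replicate 6, and its ratio to SLC4A7 differed by -0.05 (exact permutation p 0.944). The ratio of SLC12A2 to SLC12A5, chloride import over chloride export, differed by 0.22 on the log2 scale (exact permutation p 0.253, adjusted over 5 pairs 0.631), and 7 of 8 HFC pigs lay above the LFC median.

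Spread among the pigs of a group was close to that of other genes. The median coefficient of variation was 15.5% in the LFC and 14.4% in the HFC pigs for SLC25 members and 17.3% and 16.6% for the others, beside 17.7% and 17.1% for the 9470 tested genes within the members' range of CPM. The members nearest to the count minimum were SLC36A4, SLC38A5 and SLC26A6, whose 8th highest counts were 106, 107 and 107, while SLC18A2, SLC16A12 and SLC19A2 were left out with 96, 95 and 95. The 44 symbols under the minimum, 6 of them SLC25, had mean levels between 2.63 and 12.9 CPM.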

How the data were processed

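Pituitary RNA of 16 pigs was sequenced from libraries that do not keep strand, so reads of overlapping genes cannot be told apart. The authors deposited whole-number counts per Ensembl gene, made per the study's methods with FastQC, Flexbar and RSEM with STAR on Sscrofa11.1. The submitters' processing notes also list CASAVA 1.8.2 and DESeq2. The deposited group means, fold changes and p-values were not used. Counts were tested with edgeR 4.0.16 (TMM, genes kept by its default filter, quasi-likelihood test, no covariates, Benjamini-Hochberg adjustment over 13621 genes) in R 4.3.3. A pair ratio was, within a pig, the log2 of count plus 1 of the numerator gene over count plus 1 of the denominator. These ratios were tested by exact permutation over 12870 splits with scipy 1.17.1, and 5 of 10 planned pairs had both genes among the members. Alternatives used DESeq2 1.42.0, limma 3.58.1 voom, sva 3.50.0, RLE or total-size scaling, other filters, a replicate block, removal of the length trend and leaving out each pig. Members and gene lists were chosen with earlier results of these data known.

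Genes were named by smallest p in each family and direction, by highest level, by best p or level in each list, as pairs, and nearest to the count minimum. Exonic lengths were not used here, so level meant mean CPM instead of reads per kilobase, and levels are not compared between genes. Every other gene named was chosen after its values were seen. The 5 symbols that encode no transporter were set apart after the symbols were seen, and 3 members have another name in the gene name table: SLC9A3R1 and SLC9A3R2, which are among those 5, and SLC5A10, named PRPSAP2 there, which was kept by the rule in the list of SLC2, SLC5 and SLC50 carriers and would be a further member that encodes no transporter. Pigs were taken as separate animals from the labels. The scripts were tested on simulated data. Some genes that the naming rule picked are not reported here.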

Additional observations from a re-analysis of the deposited data

Results flagged for a closer look

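In 124 groups of 8 pigs (57 named members and 5 pair ratios in each group), 9 held 1 pig whose gap to its nearest neighbour exceeded the 95% critical share of the group's range in Dixon's test, where chance gives about 1 in 20 groups. HFC replicate 5 was such a pig in 5 of them: it was high for SLC25A6 (1575 CPM, next pig 812 CPM), SLC7A6OS (66.7 CPM) and SLC50A1 (56.7 CPM), low for SLC7A1 (17.3 CPM, next pig 33.2 CPM), and low for the log2 ratio of SLC25A5 to SLC25A6 (-4.06). LFC replicate 2 was high for SLC3A2 (153 CPM), SLC6A17 (276 CPM) and SLC38A10 (187 CPM). LFC replicate 8 was high for SLC2A13 (46.0 CPM, next pig 27.9 CPM). HFC replicate 5 was also the pig with the highest erythrocyte marker sum of its group and 1 of the 3 with the lowest length slope, and the part of either in these values was not tested.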

How the results depend on the processing

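Under all 29 alternatives 0 SLC25 and 0 other members were called (adjusted p limit 0.05, fold limit 1.3), while DESeq2 called 29 of all genes where edgeR called 0. At an unadjusted p of at most 0.05, 1 surrogate variable gave 1 SLC25 member higher and 0 lower, and 4 others higher and 1 lower. Under it 2.58% of all genes were higher and 2.01% lower at this threshold, and the SLC25 median was -0.015. Removing the length trend gave 1 SLC25 member higher, 1 lower and 2 others lower, beside 8.37% of all genes higher and 3.93% lower. Limma voom gave 3 others lower. Leaving out the 3 pigs of lowest length slope, chosen after seeing the data, gave 2 others lower, beside 6.66% of all genes lower. Adding the genes named only in the gene name table, also chosen later, gave 1 other lower. With the replicate number as a block 1 SLC25 member was lower and 11 others higher; same-numbered pigs correlated between -0.2967 and 0.3518 and 0 of 8 LFC pigs correlated best with their own number, so the pigs share only a number. Leaving out 1 pig gave 0 to 6 SLC25 members lower (6 without HFC replicate 5, 4 without LFC replicate 2), 0 to 1 higher, 7 to 17 others higher (17 without HFC replicate 5), 0 to 3 others lower (3 without HFC replicate 5 and without LFC replicate 2), and medians of -0.12 to -0.066 for SLC25 and -0.020 to 0.050 for the others. In the fit without HFC replicate 5, 13.8% of all genes were higher and 11.8% lower at the unadjusted threshold. Shares of all genes in the other single-pig fits, limma voom and the replicate block are not given here. The SLC25A5/SLC25A6 ratio ran from 0.21 to 0.42 and was past the threshold only without HFC replicate 5. The SLC4A4/SLC4A7 ratio ran from -0.35 to 0.41. The causes were not tested.

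Over 1482 comparisons for 57 named genes, 1423 kept direction and 59 in 18 genes changed sign. No member was called in the main test or under any alternative, so keeping the side of the adjusted threshold says nothing of stability. Of the 9 members past the unadjusted threshold, 2 stayed past it with 1 surrogate variable and 6 with total library size. With 1 surrogate variable the sign turned for SLC25A6 (0.077), SLC39A1 (0.052), SLC40A1 (0.056), SLC2A4RG (0.024), SLC7A6OS (0.098), SLC50A1 (0.16), SLC35A1 (0.15), SLC44A2 (-0.057), SLC26A11 (-0.078) and SLC12A2 (-0.0030), and with the length trend removed for SLC25A12 (-0.015), SLC50A1 (0.054) and SLC35A1 (0.012). Limma voom turned SLC25A5 (-0.019), SLC26A11 (-0.017) and SLC4A4 (-0.15), the replicate block SLC44A2 (-0.0029) and SLC4A4 (-0.022), and leaving out the 3 pigs SLC25A27 (0.0079), SLC25A13 (0.00055) and SLC25A5 (-0.00020). SLC35A1 also turned under DESeq2 (0.0039), RLE size factors (0.0035), no filter (0.0025) and at least 10 counts in every pig (0.014). Without single pigs the ranges crossed 0 for SLC25A27 (-0.12 to 0.041), SLC25A13 (-0.057 to 0.037), SLC25A5 (-0.020 to 0.041), SLC2A13 (-0.20 to 0.040), SLC12A5 (-0.18 to 0.073), SLC35A1 (-0.064 to 0.058), SLC44A2 (-0.053 to 0.11), SLC33A1 (-0.0070 to 0.10), SLC26A11 (-0.053 to 0.18) and SLC4A4 (-0.064 to 0.51). The size of difference detectable at this depth was not tested.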

Other observations

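A further 17 genes with at least 100 counts in at least 8 pigs had a solute carrier symbol only in the gene name table and not in the deposited comparison. They were looked at after the data were seen, and 11 were higher and 6 lower in the HFC pigs. At an unadjusted p of at most 0.05, 4 were higher (23.5%, beside 7.03% of all genes) and 1 lower (5.88%, beside 4.41%). SLC1A1, the glutamate and cysteine transporter EAAT3, was lowest at 10.9, median 17.2 and highest at 20.4 CPM in the LFC pigs and lowest at 6.92, median 9.71 and highest at 13.1 CPM in the HFC pigs. The groups overlapped only at their margins. The log2 fold change was -0.70 ± 0.14 (SE), running from -0.75 to -0.63 when single pigs were left out. The adjusted p was 0.372 by edgeR's quasi-likelihood test and 0.00876 by DESeq2, so the call depended on the tool.

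The others past the unadjusted threshold were higher in the HFC pigs. SLC12A1, the sodium-potassium-chloride cotransporter best known from the kidney, was at 20.0 ± 3.83 and 30.5 ± 10.8 CPM (SD, n = 8). SLC38A11, of the amino acid transporter family SLC38, was at 40.4 ± 7.96 and 55.7 ± 17.2 CPM, SLC24A1, a potassium-dependent sodium-calcium exchanger, at 14.8 ± 2.76 and 19.7 ± 5.56 CPM, and SLC4A8, a sodium-driven chloride-bicarbonate exchanger, at 77.4 ± 15.7 and 97.6 ± 18.2 CPM.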
